A study of Mus musculus with 23 samples.

Results

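Of 118102 merged regions of open chromatin in the mouse maxillary mesenchyme, 1206 (1.02%) held a called peak in each of 9 peak lists. They were chosen by those calls alone: peaks from the 9 lists on the 19 autosomes and chromosome X were merged where they overlapped by at least 1 base, and a merged region was kept when all 9 lists had a peak in it. Being called everywhere, and being strong enough to be called, are therefore properties of the choice and not results. The 3 groups were wild-type C57BL/6 embryos at embryonic day 10.5 (E10.5), E11.5 and E12.5, with 3 biological samples each and 1 list per sample, pooled from the sample's sequencing runs (23 in all). The maxillary prominence, the embryonic bud that forms the upper jaw, was dissected, its ectoderm was peeled off after Dispase digestion, and the remaining mesenchyme was profiled by ATAC-seq, in which the Tn5 transposase inserts sequencing adapters where DNA is accessible. The number of embryos per sample is not stated in the labels, so every p-value rests on the spread among these 9 samples alone.

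Promoters are the stretches of DNA where transcription starts. In mammals most promoters of widely expressed genes lie in CpG islands, stretches rich in G+C that keep their CpG dinucleotides, and stay free of nucleosomes in nearly all cell types, whereas enhancers that carry tissue identity open and close between tissues and stages. Typical promoter elements are the CCAAT box, bound by the trimeric factor NF-Y, the GC box, bound by factors of the SP and KLF families, and the TATA box.

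The regions called in all 9 lists lay mainly at gene starts, and 7 of those starts are printed to show what such sequence looks like. Each line holds the 250 bases before a listed start, 5′ to 3′ on the gene's strand, from RefSeq promoter sequences on GRCm38.p6, with CCAAT boxes in either orientation (CCAAT or ATTGG) in capitals. Cggbp1 (chr16:64851751-64852000, plus strand), encoding a protein that binds CGG repeats, shares with Zfp654 the region that ranked highest, and its 250 bases held 2 CCAAT boxes and 3 GC boxes (GGGCGG on either strand).
Cggbp1: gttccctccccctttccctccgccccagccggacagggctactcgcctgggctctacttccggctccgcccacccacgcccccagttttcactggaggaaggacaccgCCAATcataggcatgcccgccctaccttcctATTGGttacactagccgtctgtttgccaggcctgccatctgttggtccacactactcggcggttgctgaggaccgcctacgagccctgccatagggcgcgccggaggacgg
Hspa5 (chr2:34771840-34772089, plus strand) encodes BiP, the main chaperone of the endoplasmic reticulum, and had the most CCAAT boxes of the 7, with 4.
Hspa5: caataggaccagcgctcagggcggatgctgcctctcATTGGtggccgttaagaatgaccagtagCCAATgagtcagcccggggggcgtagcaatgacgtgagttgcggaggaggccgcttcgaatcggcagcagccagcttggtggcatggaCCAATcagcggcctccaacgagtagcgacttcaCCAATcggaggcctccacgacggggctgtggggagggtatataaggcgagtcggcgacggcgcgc
Hspd1 (chr1:55087933-55088182, minus strand), the mitochondrial chaperonin HSP60, starts back to back with its partner Hspe1 in a single region, and had 0 CCAAT boxes and 2 GC boxes.
Hspd1: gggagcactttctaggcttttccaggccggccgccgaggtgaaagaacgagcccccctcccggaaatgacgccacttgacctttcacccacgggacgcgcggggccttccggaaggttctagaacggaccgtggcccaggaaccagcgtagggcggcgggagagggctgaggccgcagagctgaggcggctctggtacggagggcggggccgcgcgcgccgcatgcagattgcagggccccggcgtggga
Hnrnpk (chr13:58402118-58402367, minus strand), an RNA-binding protein of pre-mRNA processing, had 2 CCAAT boxes and a G+C content of 69.2%, and its region ranked higher at E12.5 than a day earlier.
Hnrnpk: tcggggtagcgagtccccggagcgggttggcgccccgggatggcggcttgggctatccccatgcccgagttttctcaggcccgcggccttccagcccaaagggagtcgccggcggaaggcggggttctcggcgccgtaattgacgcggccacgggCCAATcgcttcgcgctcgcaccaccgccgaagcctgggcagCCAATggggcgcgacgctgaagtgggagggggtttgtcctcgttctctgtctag
Cldnd1 (chr16:58727660-58727909, plus strand), a claudin-domain membrane protein whose region ranked lower at E12.5 than a day earlier, had 0 CCAAT boxes, 0 GC boxes and a G+C content of 49.2%.
Cldnd1: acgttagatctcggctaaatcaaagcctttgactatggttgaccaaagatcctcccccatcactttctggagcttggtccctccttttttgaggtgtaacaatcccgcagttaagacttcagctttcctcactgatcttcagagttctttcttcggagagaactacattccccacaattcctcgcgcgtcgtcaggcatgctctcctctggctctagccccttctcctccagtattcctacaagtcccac
Esyt2 (chr12:116280972-116281221, plus strand), a tether between the endoplasmic reticulum and the plasma membrane, is shown as a start that lies inside its gene, away from the gene's outer boundary.
Esyt2: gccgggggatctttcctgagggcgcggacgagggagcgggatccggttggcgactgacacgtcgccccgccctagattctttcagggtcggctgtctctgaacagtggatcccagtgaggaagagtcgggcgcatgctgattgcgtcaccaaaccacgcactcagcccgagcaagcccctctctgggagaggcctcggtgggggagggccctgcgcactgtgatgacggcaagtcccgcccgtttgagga
Vim (chr2:13574061-13574310, plus strand), the intermediate filament gene vimentin and a mesenchyme marker, had 2 CCAAT boxes and 1 TATA box (TATAAA).
Vim: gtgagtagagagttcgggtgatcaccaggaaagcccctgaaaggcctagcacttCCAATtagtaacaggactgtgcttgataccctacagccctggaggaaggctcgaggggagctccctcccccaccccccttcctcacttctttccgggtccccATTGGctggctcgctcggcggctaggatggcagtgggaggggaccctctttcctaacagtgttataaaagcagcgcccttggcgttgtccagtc

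The share of regions near genes, which the choice of members did not use, climbed with the number of lists that called a region. Of the 1206 regions, 1015 (84.2%, 95% Wilson interval 82.0% to 86.1%) had their strongest summit within 1 kb of the start or end of a protein-coding gene in the RefSeq annotation. The share was 80.2% of the 1407 regions called in 8 lists, 49.9% of those called in 5 and 24.8% of those called in 3. Regions in 1 list and regions in all 9 thus stood at opposite ends of a series without a break, and the step at the last list was small.

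**Figure D1:**
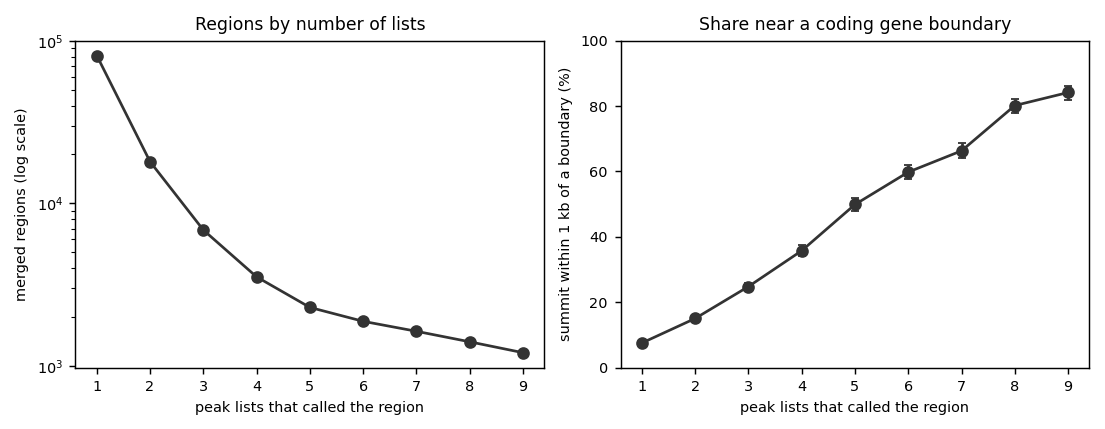
Left, the number of merged regions (log scale) against the number of peak lists that called them; right, the share of those regions with a summit within 1 kb of a protein-coding gene boundary, with 95% Wilson intervals. The count falls from 81231 to 1206 while the share climbs to 84.2%.

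The line between 9 and 8 lists was drawn mostly by 3 lists. Of the 1407 regions called in 8 lists, 618 (43.9%) lacked a call in E12.5 sample 1, 417 (29.6%) in E11.5 sample 1 and 222 (15.8%) in E12.5 sample 3, and the other 6 lists accounted for 1 to 57 each. Without E12.5 sample 1, 1824 regions were called in all remaining lists in place of 1206. The weakest of a region's 9 −log10 q values had a median of 3.39 for the 1206 regions, against 2.91 over 8 calls for the 1407. Among the regions just outside, those with the strongest folds in their 8 lists were at Wdr19, a transport protein of the cilium, Rnf13, a ubiquitin ligase, Nrd1, a protease, Hltf, a DNA helicase of damage tolerance, and Sdccag8, a centrosome protein. Wdr19, Nrd1 and Hltf had no call in E12.5 sample 3, and Rnf13 and Sdccag8 none in E12.5 sample 1.

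Merged regions called in all 9 lists had a median width of 1072.5 bases (quartiles 853 and 1308.75, range 308 to 3389), against 195 bases for all regions and 972 for those in 8 lists. A region merged from 9 lists is wide in part by construction, so widths were also taken within a list. The widest peak of a member had a median of 553.5, 777 and 456 bases in E10.5 samples 1 to 3, 385, 810 and 643 bases in E11.5 samples 1 to 3, and 152, 491.5 and 452 bases in E12.5 samples 1 to 3. All peaks of the same lists had medians of 226, 320 and 182 bases in E10.5 samples, 286, 353 and 153 bases in E11.5 samples, and 98, 194 and 222 bases in E12.5 samples. In each of the 9 lists members were thus wider than the typical peak, with the smallest gap, under 100 bases, in E11.5 sample 1 and in E12.5 sample 1.

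Calls in all 9 lists did not always fall on the same bases. In 843 regions (69.9%) at least 1 base was covered by peaks of every list, with a median of 123 shared bases (quartiles 77 and 183.5). The other 363 held peaks of 9 lists that touched only through one another, and 300 of these were near a gene boundary. The summits of the 9 lists spread over a median of 352 bases within a region (quartiles 201 and 585.75), and in 301 regions (24.96%) they fell within 200 bases. In 424 regions (35.2%) each list had exactly 1 peak.

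Where the gene start was known, the open chromatin sat just upstream of it. Of the 1015 regions near a boundary, 847 (83.4%) were within 1 kb of a start listed in the promoter table, and the strongest summit lay a median of 90 bases upstream of that start (quartiles 155 and 27.5 upstream). It was within 300 bases of the start in 763 (90.1%) and downstream of it in 141 (16.6%). Starts of different coding genes on opposite strands, both within 1 kb of the summit, were found in 168 of the 847 (19.8%). They were found in 121 of 911 such regions called in 8 lists (13.3%) and 148 of 3008 called in 1 list (4.92%). Whether these starts point away from each other was not tested, so they need not be back to back. Distances were taken from the summit, and whether region width or base composition has a part in these shares was not tested.

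The chromosomes carried these regions in unequal numbers. Per 100 protein-coding genes, the autosomes held between 4.38 (chromosome 7) and 9.43 (chromosome 12) regions, and chromosome X held 0.621, with 6 regions for 966 genes. They included those at Ddx3x, an RNA helicase, Kdm6a, a histone demethylase, Las1l, a ribosome assembly factor, Wnk3, a kinase of ion transport, and Rps6ka3, a growth factor kinase. Of all merged regions on X, 0.402% were called in all 9 lists, against 1.02% over the genome.

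By gene, 1230 of 21631 protein-coding genes (5.69%) had a region called in all 9 lists within 1 kb of a boundary, and 13752 had a called region of any kind there. Against those 5.69%, chaperonin and heat shock genes were at 22.5% (18 of 80), splicing genes at 15.6% (14 of 90), chromatin remodelling genes at 13.3% (4 of 30) and translation factors at 13.0% (9 of 69). Further lists stood near those 5.69%: cytosolic ribosomal proteins 5.81% (5 of 86) and mitochondrial ribosomal proteins 6.41% (5 of 78). Nuclear respiratory chain subunits had 6.98% (6 of 86), tRNA synthetases 7.89% (3 of 38) and RNA polymerase and Mediator subunits 7.87% (7 of 89). Replication and cell cycle genes had 7.27% (4 of 55) and Zfp zinc finger genes 7.56% (30 of 397). Among genes with a called region of any kind, 8.94% had one called in all 9 lists. On that base cytosolic ribosomal proteins were at 6.41%, mitochondrial ribosomal proteins 6.85%, respiratory chain subunits 7.79% and replication and cell cycle genes 7.69%. RNA polymerase and Mediator subunits (8.75%) and tRNA synthetases (8.57%) were just below 8.94%, and Zfp genes (9.65%) above. Chaperonin, splicing, chromatin and translation lists stayed above, at 26.5%, 16.9%, 16% and 15%. Proteasome genes had 0 of 39, although 34 of the 39 were called in at least 1 list. These are counts over chosen lists with no test of a list against other genes. The chaperone and translation lists include genes whose products are not chaperones or translation factors, such as Hspb11 and Eef2kmt.

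**Figure D2:**
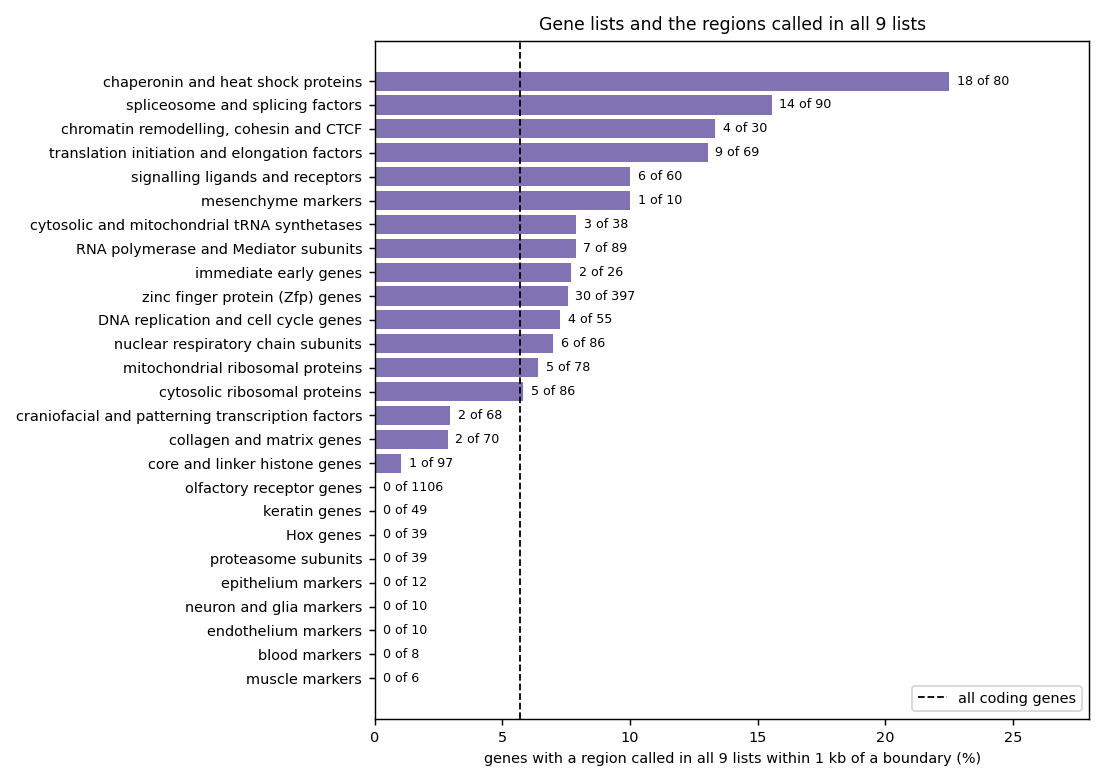
Share of each gene list (bars, in percent, with counts of genes beside them) that had a region called in all 9 lists within 1 kb of a gene boundary; the dashed line marks all protein-coding genes (5.69%). Chaperone and splicing genes stand furthest to the right, and proteasome, Hox, keratin and olfactory receptor genes at 0.

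Chaperones fold new proteins and rescue damaged ones, and their promoters in the set covered the cytosol, the endoplasmic reticulum and mitochondria. The fold enrichment of a region in a list is the authors' value, and its percentile, the share of the 1206 regions with a lower fold in the same list, allows regions to be ranked within each list. Hspa5, the BiP gene whose 4 CCAAT boxes are printed above, had folds of 4.47, 4.87 and 3.27 in E10.5 samples, 7.53, 10.4 and 8.14 in E11.5 samples, and 4.85, 4.30 and 4.42 in E12.5 samples, with a mean percentile of 75.8. Dnajb9, a J-domain partner of BiP, had 5.50, 4.52 and 4.17 in E10.5 samples, 8.44, 12.1 and 15.8 in E11.5 samples, and 4.16, 3.50 and 3.78 in E12.5 samples, with a mean percentile of 80.7, the highest of the list. Hspa5 was below the median of the set only in E10.5 sample 3. Folds run on a different scale in each list: the median of the set was 4.17, 3.57 and 3.28 in the E10.5 lists, 5.88, 9.04 and 7.40 in the E11.5 lists, and 4.16, 3.32 and 3.49 in the E12.5 lists. Tcp1, a subunit of the cytosolic chaperonin, had a mean percentile of 74.3, and Hspb11, a transport protein of the cilium despite its symbol, 71.3. Hspa14, a ribosome-associated HSP70, had 70.5, and Dnajb4, an HSP40 cochaperone, 69.8. The shared region of Hspd1 and Hspe1, whose products form the mitochondrial folding chamber, had folds of 5.15, 3.21 and 3.80 in E10.5 samples, 5.35, 7.32 and 6.66 in E11.5 samples, and 3.89, 2.90 and 3.61 in E12.5 samples, with a mean percentile of 44.8. The lowest of the list was Cct7, another chaperonin subunit, at 23.3.

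Splicing regions were led by Hnrnpc, which binds uridine-rich nascent RNA, with folds of 6.44, 4.74 and 3.75 in E10.5 samples, 8.40, 13.6 and 14.1 in E11.5 samples, and 7.003, 3.75 and 5.27 in E12.5 samples, and a mean percentile of 91.7. Hnrnpr (80.0), Hnrnpk (79.1) and Hnrnpll (77.6), further hnRNP proteins that coat pre-mRNA, came next, and Sf1 (63.6), which reads the branch point, was also among the first 6. Translation was represented by Eif5 (mean percentile 87.1), Eif4g2 (73.2), Eif2s1 (73.1), Eef2kmt (44.2), Eif5b (43.8) and Eif4b (33.5) at the head of their list. All 4 chromatin genes are named: Chd8 (80.8), a remodeller of the CHD family, Ezh2 (75.6), the methyltransferase of Polycomb complex 2, Smarcc1 (53.2), a scaffold of the BAF complex, and Ino80 (49.7), a nucleosome remodeller. The ribosomal protein genes were Rpl15 (87.1), Rps29 (71.9), Rpl27 (44.7), Rpl21 (29.8) and Rps21 (19.3), spread over most of the range.

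The remaining cellular machinery was spread as widely. The mitochondrial ribosomal genes were Mrpl47 (mean percentile 56.3), Mrpl48 (54.5), Mrpl50 (47.1), Mrps18b (42.8) and Mrpl41 (38.7). The respiratory chain was represented by Atp5j (58.9), Ndufb5 (56.3, in the region of Mrpl47), Atp5g2 (45.9), Uqcrh (38.1), Ndufb1 (34.4) and Sdhb (14.5). Tars (67.3), Tarsl2 (37.8) and Kars (33.2) encode tRNA synthetases. Transcription machinery included Med21 (75.4), Polr3f (54.7), Med26 (50.3), Polr1d (50.1), Med31 (46.5) and Gtf2e1 (35.0). The replication and cell cycle genes were Orc6 (60.4) of the origin complex, Gins2 (36.5) of the replicative helicase, and the kinases Cdk1 (32.3) and Cdk4 (21.2). Zfp genes were led by Zfp654 (97.2), Zfp869 (88.4), Zfp277 (77.5), Zfp788 (71.1), Zfp267 (65.8) and Zfp367 (64.9).

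Of 68 craniofacial and patterning transcription factors, 2 (2.94%) had a region called in all 9 lists, where 5.69% of all coding genes did. Gli3, the transcription factor that transduces Hedgehog signals, had folds of 3.20, 3.56 and 3.27 in E10.5 samples, 5.55, 5.63 and 5.07 in E11.5 samples, and 4.16, 2.81 and 3.54 in E12.5 samples, mostly below the medians. Signalling genes reached 10.0% (6 of 60): the TGF-beta receptor Tgfbr1 (mean percentile 51.9), the FGF-responsive factor Etv5 (43.4), the Wnt receptor Fzd1 (38.1), the endothelin receptor Ednra (24.4), which patterns the jaw, the BMP antagonist Grem1 (20.7) and the TGF-beta coreceptor Tgfbr3 (18.95). Their median of 31.2 lay below the 51.2 of all genes in the set. The immediate early genes Klf6 (63.5) and Jun (18.02), the matrix genes Lamc1 (43.2) and Nid2 (38.4) and the histone variant gene H2az1 (56.1) made up their lists, with 2 of 26, 2 of 70 and 1 of 97 genes. Hox genes had 0 of 39, keratin genes 0 of 49 and olfactory receptor genes 0 of 1106.

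Of cell type markers, 1 of 10 for mesenchyme was in the set, Vim, with folds of 5.00, 4.48 and 3.83 in E10.5 samples, 6.09, 7.97 and 5.80 in E11.5 samples, and 4.38, 3.78 and 4.27 in E12.5 samples. Twist1, a mesenchymal transcription factor, was called in 8 lists, Twist2 and Col1a2 in 5, and Prrx1, Alx4 and Col1a1 in 0 within 1 kb of a boundary. No marker of epithelium (0 of 12), endothelium (0 of 10), blood (0 of 8), muscle (0 of 6) or neurons and glia (0 of 10) was in the set. Among the markers of these other cell types the most widely called were Kdr of endothelium in 7 lists and Elavl4 of neurons in 6, and epithelial markers reached 3 lists at most. With 5.69% of all coding genes in the set, lists of 6 to 12 markers can hold none for any cell type, so these counts do not check the tissue. Bulk peak lists cannot tell fewer cells of a type from weaker opening per cell.

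Ranked by mean percentile over the 9 lists, the strongest region was the one at Zfp654 and Cggbp1 (chr16:64850876-64852333), with folds of 5.43, 5.56 and 4.25 in E10.5 samples, 11.7, 15.1 and 17.9 in E11.5 samples, and 7.003, 5.03 and 5.23 in E12.5 samples. It stood at 97.2 ± 4.02 (SD over the 9 lists), between the 89.6th percentile and the top. Dcbld2, a neuropilin-like membrane receptor, followed at 96.3 ± 3.72, and then Pja2, a ubiquitin ligase (95.6), Plag1, a zinc finger growth regulator (94.7), and Pdcd10, a vascular integrity protein (94.1). Among the rest of the 10 highest, Nmt2, a myristoyltransferase, the pair of the nuclear pore gene Nup98 and the lipid anchor gene Pgap2, and Inpp5f, a phosphoinositide phosphatase, had 93.8, 93.8 and 93.5, and the last had 93.2. At the other end were Chpf (4.94), which polymerises chondroitin, Sec16a (5.44) of the exit sites of the endoplasmic reticulum, Xylt1 (5.57), which starts glycosaminoglycan chains, Pxylp1 (5.81), a phosphatase of the glycosaminoglycan linker, and Slc2a8 (6.11), a sugar transporter. The Chpf region had folds of 2.46, 2.69 and 2.24 in E10.5 samples, 3.67, 6.38 and 3.58 in E11.5 samples, and 3.57, 2.39 and 2.12 in E12.5 samples, below the member median in each list.

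The widest regions ran from the lower part of the set to just above its middle. Gm20783, with 3389 bases, had a mean percentile of 60.2, above the set's median of 49.3. After it came Fzd1 with 2695 bases, Cpeb2, an mRNA-binding regulator of translation, with 2687, Ephb6, a kinase-dead Eph receptor, with 2661, and Jun, an AP-1 subunit, with 2600. The mean percentiles of these 4 were 38.1, 28.3, 28.4 and 18.02, all below that median.

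The strength of the set within each list varied. Members held a median percentile of 89.6, 92.8 and 91.1 among all regions called in the list for E10.5 samples 1 to 3, 68.3, 90.2 and 95.9 for E11.5 samples, and 83.9, 96.1 and 88.8 for E12.5 samples. The 68.3 belonged to E11.5 sample 1, the shortest list with 5682 peaks. Of the 1206 strongest regions of a list, members were 42.1%, 47.1% and 49.3% in E10.5 samples, 36.3%, 27.1% and 39.9% in E11.5 samples, and 25.2%, 39.4% and 37.2% in E12.5 samples. More than 50% of the strongest regions of every list were therefore not called in at least 1 other list, so the set is not the list of the strongest peaks.

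Promoter composition followed the number of lists as well. Windows of 300 bases (250 before and 50 after the start) were available for 21020 listed starts, of which 1247, from 1099 genes, fell in a region called in all 9 lists. Their median G+C was 65%, the same as for starts in regions called in 8 lists, and 62.3% in 4 to 7 lists, 58.3% in 1 to 3 lists and 50.0% at starts with no called region. The observed over expected ratio of CpG dinucleotides had medians of 0.828, 0.820, 0.797, 0.704 and 0.264 in the same order, and a ratio of at least 0.6 was met by 89.4% of the windows in the set, against 48.1% of all. Composition thus levelled off between 8 and 9 lists.

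Short motifs were searched on both strands and differed in how they followed the number of lists. GC boxes (GGGCGG) were present in 78.3% of windows in the set, 79.4% of those in 8 lists and 46.6% of all, which parallels the G+C content. The ETS motif (CCGGAAG) was in 17.5% in the set, 19.4% at 1 to 3 lists and 11.7% of all. TATA boxes (TATAAA) were in 3.61% of windows in the set and 12.7% of all. The homeodomain motif TAATTA was in 0.642% against 4.48%, and the E-box form CATNTG, which TWIST-like factors bind, in 18.8% against 33.6%; both are poor in G+C. The CTCF core AGGGGGC was in 24.4% against 13.0% of all, and 19.8% in 8 lists. This string is rich in G+C, and it was not compared at equal G+C.

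The CCAAT box grew more frequent from 8 to 9 lists, where composition had levelled off. It was in 51.6% of windows in the set, 46.0% of those in 8 lists, 38.1% in 4 to 7, 36.2% in 1 to 3 and 36.9% of those with no called region, with 38.5% of all. At least 2 boxes were present in 30.0% of windows in the set, against 20.5% in 8 lists, 14.6% in 4 to 7, 10.8% in 1 to 3 and 9.67% with no called region. Since CCAAT is itself poor in G+C, windows were also compared within bands of G+C. Between 60% and 65% G+C, 39.6% of 336 windows in the set had at least 2 boxes, against 22.4% of 308 in 8 lists, 15.7% of 998 in 4 to 7, 9.60% of 656 in 1 to 3 and 7.93% of 832 with no called region. Between 65% and 70% the shares were 26.2%, 16.5%, 10.4%, 10.0% and 7.84% in the same order. Between 55% and 60% the set was below the regions called in 8 lists, at 32.6% of 184 windows against 37.3% of 193. The boxes sat a median of 88 bases before the start in the set and 97 before it at starts with no called region. A match is a letter string and not a shown binding site, and windows of 1 gene with several starts overlap.

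**Figure D3:**
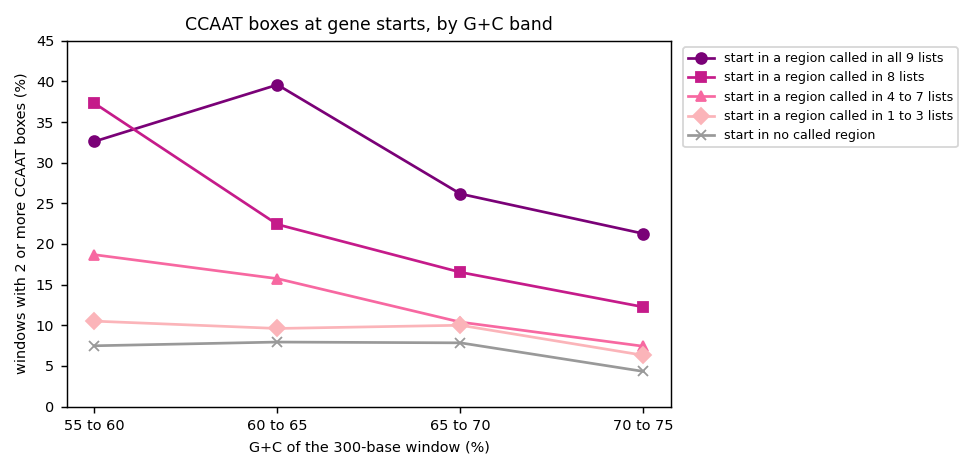
Share of 300-base windows at gene starts with at least 2 CCAAT boxes (percent, vertical axis) by band of G+C content (horizontal axis), with 1 line for each class of starts by how many lists called the region. From 60% G+C upward the set (39.6%, 26.2% and 21.3%) is above each other class, and from 55% to 60% regions called in 8 lists are highest.

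The minority of 191 regions away from protein-coding boundaries turned out to hold mostly starts as well. Their median distance from a boundary was 4614 bases: 60 were at 1 to 2 kb, 71 at 2 to 10 kb, 53 at 10 to 100 kb and 7 beyond 100 kb. At 112 of them (58.6%) the summit was within 1 kb of a listed start inside a coding gene, and 24 (12.6%) were at a non-coding or other gene, 22 of these being long non-coding RNAs. Whether the genes of those 112 also start at their outer boundary was not examined. The remaining 55 (28.8%) were at neither, with 37 inside a coding gene and 18 between genes. Starts were listed for 79.9% of coding genes, so starts that are not listed can be among these 55.

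Listed starts inside genes led the strongest regions of the minority. Tob1, an antiproliferative protein, was at 90.2 ± 12.5 (mean percentile, SD over the 9 lists), with folds of 6.08, 4.83 and 5.41 in E10.5 samples, 6.58, 10.5 and 10.0 in E11.5 samples, and 7.38, 5.87 and 5.16 in E12.5 samples, and its summit lay 277 bases from a listed start and 1335 from the outer boundary. Esyt2, whose sequence is printed above, was at 87.8, 24 bases from a listed start. Others of the 15 strongest at listed starts were Add3 (90.0), a membrane skeleton protein, Fer (85.3), a tyrosine kinase, Gphn (81.0), a scaffold of inhibitory synapses, Tsga10 (79.3), Tiprl (78.3), a regulator of phosphatases, the histone demethylase Kdm6a (78.2), Cipc (78.0), a clock repressor, and Hif1a (75.4), the oxygen-response factor. The farthest regions from any boundary also included such starts. The summit at Nrxn3, a synaptic adhesion gene, was 522613 bases inside the gene and 161 from a listed start, Dab1, of reelin signalling, was 376812 inside and 494 from a start, and Specc1 120054 inside and 207 from a start. Of the remaining 2 of the 5 farthest, Arid1b, a BAF complex subunit, was 157656 bases from its boundary with no listed start near (chr17:5189583-5190319), and the other was 127439 bases inside its gene.

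Regions at neither a boundary nor a listed start were weaker as a class and included developmental loci. Their median mean percentile was 34.6, against 45.3 at listed starts inside genes and 51.1 near boundaries. The strongest was near Mier3, a nuclear corepressor-related gene (chr13:111725012-111726216), 6733 bases outside it. It lay 1013 bases from a boundary of the annotated gene Gm15488, just beyond the 1 kb limit. This region had folds of 5.43, 5.24 and 4.67 in E10.5 samples, 9.50, 11.5 and 8.90 in E11.5 samples, and 5.25, 4.35 and 4.05 in E12.5 samples. Next came a region 104512 bases from Zfat, a zinc finger gene (chr15:68363107-68363710), with folds of 5.64, 4.45 and 4.50 in E10.5 samples, 10.6, 11.5 and 11.3 in E11.5 samples, and 4.81, 3.67 and 4.32 in E12.5 samples. Both stood high in every list, at mean percentiles of 88.8 and 87.7. Others among the 15 strongest were nearest to Frg1 but inside Asah1 (81.6), and near Tead4, a Hippo pathway factor (79.2). The region near Tead4 lay 1240 bases from a boundary of the annotated gene Gm4691. A few loci were picked out after their values were seen, for their roles in the facial mesenchyme or in growth. A region 4863 bases inside Pdgfra, the receptor that marks facial mesenchyme (chr5:75155688-75156535), had folds of 2.95, 2.83 and 2.58 in E10.5 samples, 3.97, 4.17 and 3.42 in E11.5 samples, and 3.45, 2.90 and 2.66 in E12.5 samples, and a mean percentile of 8.28. Klf4 (7.05), Myc (11.1), a region 76432 bases from Hmga2 (23.7), one 18494 bases from Fos (29.9), Pbx3 (34.1), Dach1 (34.2) and Has2 (46.8) were also in this class, all below the set's median of 49.3.

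The minority differed from the rest in rank in some lists only. The median percentile among the 1206 was 38.3, 41.3 and 41.9 for regions away from boundaries at E10.5, against 51.7, 51.9 and 52.4 near them. At E11.5 it was 39.6, 36.9 and 34.8 away, against 51.5, 51.9 and 52.7 near. At E12.5 it was 50.6, 42.6 and 50.5 away, against 50.6, 51.1 and 49.9 near, so that E12.5 samples 1 and 3 showed no such gap. Widths were alike, with medians of 1131 bases away and 1063 near.

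Whether the order of these regions changed between stages was the remaining question the design allowed. Within a stage the folds of the 1206 regions ranked alike at E10.5 (Spearman 0.616 to 0.674 for pairs of lists) and at E11.5 (0.668 to 0.757) and less so at E12.5 (0.335 to 0.450). Between stages the values were 0.427 to 0.631 for E11.5 with E10.5, 0.394 to 0.537 for E12.5 with E10.5, and 0.169 to 0.433 for E12.5 with E11.5. These describe the regions, which share library and composition, and carry no test. For the test, percentiles were turned into normal scores, so that a difference of 1 is 1 SD of the set, and limma was fitted over 3965 regions that had a value in at least 2 lists of each stage, with Benjamini-Hochberg adjustment over all of them. The 3 comparisons share their lists and are not independent.

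E12.5 and E11.5 differed most. In limma at an adjusted p under 0.05, 88 of the 1206 regions (7.30%) ranked higher at E12.5, where 11.6% of all tested regions did. The 70 that ranked lower (5.80%) compare with 4.97% of all tested regions. Every E11.5 sample carried weight: without E11.5 sample 1, 2 or 3 the numbers were 56 and 40, 26 and 17, and 42 and 33. The order against the background turned without E11.5 sample 2, when 2.16% of the 1206 and 1.42% of all tested regions ranked higher and 1.41% and 2.14% lower. It turned likewise without E11.5 sample 3, with 3.48% and 2.15% higher and 2.74% and 3.97% lower, so no order against the background is read from this comparison. With centred log2 folds 144 ranked higher (11.9%, against 29.7% of all tested regions) and 129 lower (10.7%, against 6.76%). Of the 1206 regions, 316 had an unadjusted p under 0.05.

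Cldnd1 and Arl5b had the smallest adjusted p. Cldnd1 stood at percentiles 40.05, 19.1 and 28.4 at E12.5 and 99.96, 95.8 and 98.8 at E11.5, a difference of −3.01 ± 0.496 (SE, limma adjusted p = 0.000966). Its E10.5 values of 70.02, 61.3 and 41.9 lay between those of E12.5 and E11.5. Arl5b, a small GTPase of Golgi traffic, was at 16.8, 5.80 and 52.7 at E12.5 and at 94.5, 98.9 and 96.3 at E11.5 (−2.71 ± 0.499, limma adjusted p = 0.000966). Fh1, the fumarase of the citric acid cycle, was at 75.8, 57.0 and 13.6 at E12.5 and at 99.0, 97.8 and 99.9 at E11.5. All 3 were near the top of the set at E11.5, and Fh1 at E10.5 too, with 87.6, 97.6 and 94.6. The shared region of Dzank1 and Polr3f, a subunit of RNA polymerase III, fell by 2.35 (limma adjusted p = 0.0018), and Tmem123 by 2.28 (adjusted p = 0.00224).

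The leading regions on the higher side were mostly near the bottom of the set at E11.5. An Arid1b region 1122 bases from the gene's boundary and 345 from a listed start (chr17:4994829-4996475), which is not the far one, stood at percentiles 53.1, 61.2 and 94.7 at E12.5 and 5.68, 1.37 and 4.10 at E11.5 (2.50 ± 0.494, limma adjusted p = 0.00139). Tsc22d2, a leucine zipper gene, was at 75.8, 73.5 and 82.9 at E12.5 and 1.87, 7.01 and 7.13 at E11.5 (2.43 ± 0.482, limma adjusted p = 0.00139). Ddx31, an RNA helicase of ribosome assembly, was at 87.1, 67.3 and 90.8 at E12.5 and 14.3, 3.36 and 7.42 at E11.5. The E10.5 values of these 3 lay between 28.5 and 65.8. Gm20783, the widest region, rose by 2.79 (limma adjusted p = 0.00119), with 85.6, 94.0 and 98.5 at E12.5 and 36.7, 2.11 and 11.2 at E11.5, and 1700025G04Rik rose by 2.55 (limma adjusted p = 0.00168).

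**Figure D4:**
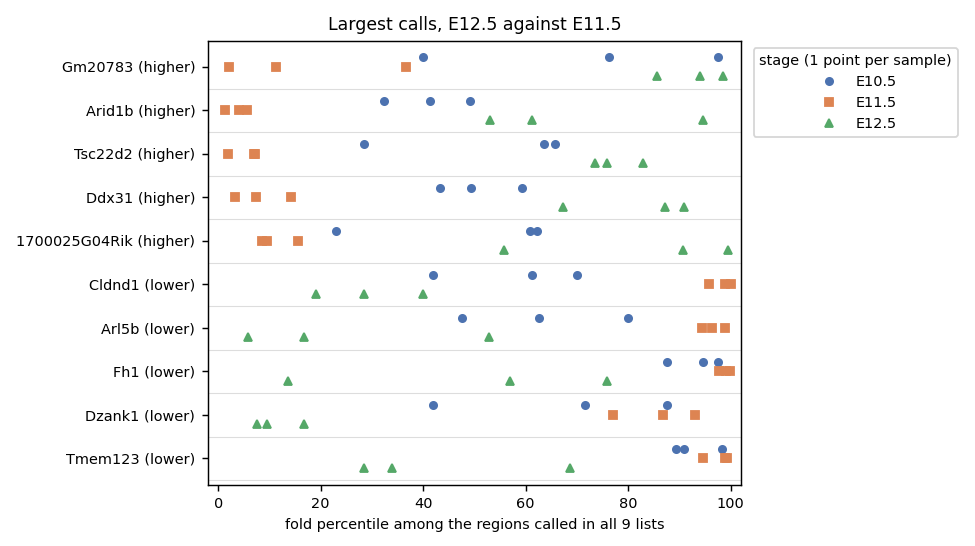
Fold percentile among the 1206 regions (horizontal axis) in each sample for the 5 regions with the smallest adjusted p in each direction, E12.5 against E11.5; circles are E10.5, squares E11.5 and triangles E12.5, 1 point per sample. E12.5 and E11.5 points do not overlap in any of the 10 regions, which were picked by this same comparison, so the gap is no further result.

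Of the 14 splicing factor regions, 7 ranked higher and 0 lower in limma at E12.5, against E11.5, where 11.6% of all tested regions ranked higher and 4.97% lower, with a median difference of 1.24, against 0.02 over all 1206 regions. Without E11.5 sample 1 or 2 the count was 3 or 4, and without E12.5 sample 3 it was 5, with 1 lower. Hnrnpk, whose 2 CCAAT boxes are printed above, had folds of 5.88, 5.22 and 5.77 at E12.5 and 5.42, 9.36 and 7.35 at E11.5, and its difference in rank was 2.35 ± 0.484 (limma adjusted p = 0.00168). The folds themselves overlapped between the stages, so the difference is one of rank within the set. Hnrnpa2b1, an RNA transport and splicing protein, differed by 2.34 (limma adjusted p = 0.0077), Hnrnpr by 1.96 (0.00772), Srsf2, an exon definition factor, by 1.92 (0.00914), Sf1 by 1.74 (0.0141), Hnrnpdl by 1.58 (0.0221) and Hnrnpul2 by 1.45 (0.0377). Hnrnpc (−0.04), Snrnp40 (−0.44) and Hnrnpll (−0.87) had negative differences that did not pass. Against E10.5, 0 of the 14 passed at E11.5 (median difference −0.65) or at E12.5 (0.48); across the 14, median percentiles were 67.4, 69.4 and 66.1 in E10.5 samples, 28.2, 31.4 and 46.1 in E11.5 samples, and 58.1, 68.7 and 92.9 in E12.5 samples.

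**Figure D5:**
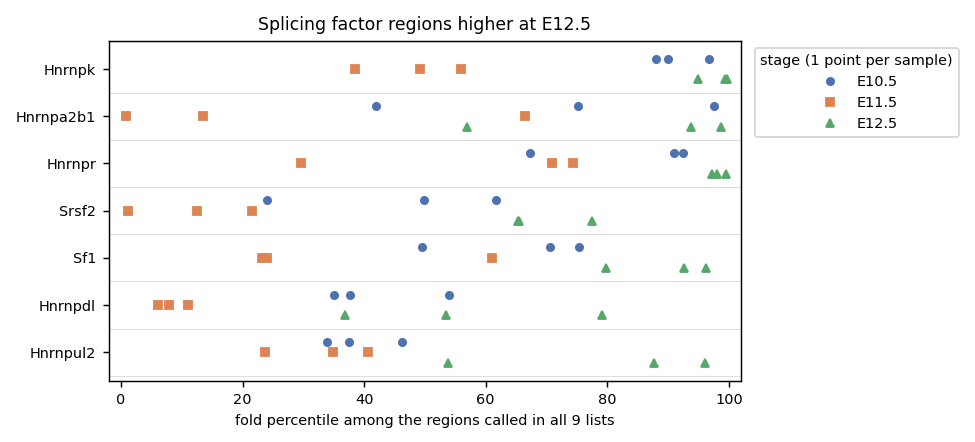
Fold percentile among the 1206 regions (horizontal axis) in each sample for the 7 splicing factor regions that ranked higher at E12.5 than a day earlier, ordered by that difference; circles are E10.5, squares E11.5 and triangles E12.5, 1 point per sample. The squares lie mostly left of the triangles.

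Few regions of the other lists passed between E12.5 and E11.5, where 11.6% of all tested regions ranked higher and 4.97% lower. At those shares lists this short can hold few calls or none, so no list is read as changed or unchanged. Of 17 regions of the chaperonin and heat shock list, Hspb11 (1.55, limma adjusted p = 0.0258) and Dnajc7 (1.51, 0.0279) ranked higher and Dnajb9 (−1.53, 0.029) ranked lower. Among 30 Zfp regions, Zfp664 ranked higher (1.82, limma adjusted p = 0.0113) and Zfp189, whose region is shared with Mrpl50, ranked lower (−2.18, 0.00714). Grem1, which blocks BMP signals, ranked higher (1.497, limma adjusted p = 0.0324), with folds of 3.73, 2.70 and 3.49 at E12.5 and 4.18, 4.35 and 3.50 at E11.5. None of the regions of translation factors (9), respiratory chain subunits (6), cytosolic ribosomal proteins (5), replication and cell cycle genes (4), chromatin genes (4), tRNA synthetases (3), transcription factors of the face (2), immediate early genes (2), matrix genes (2), H2az1 or Vim passed.

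Base composition and width moved with these calls. Promoter windows of regions that ranked higher at E12.5 had a median G+C of 68.7% (60 windows), those that ranked lower 61.7% (53), and those that did not pass 65.3% (825). At least 2 CCAAT boxes were in 18.3%, 52.8% and 33.2% of the same windows, and median widths were 1368.5, 884.5 and 1063 bases. Across 938 regions, G+C and fold had Spearman values of −0.00, 0.04 and 0.02 in the E10.5 lists, −0.10, −0.20 and −0.16 in the E11.5 lists and −0.06, 0.02 and 0.15 in the E12.5 lists, each a description over regions of 1 library. The splicing windows, with a median G+C of 65.7% and a median region width of 1395.5 bases, were typical in G+C and wide. Whether composition or width has a part in the stage differences was not tested, and stage and library preparation cannot be told apart with these labels.

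E11.5 against E10.5 gave fewer calls. In limma, 18 of the 1206 regions ranked higher at E11.5, where 1.56% of all tested regions did, 10 ranked lower, where 1.49% did, and 215 had an unadjusted p under 0.05. Leaving out any 1 of the 9 samples moved at least 1 of these counts by over 1.5 times, within 0 to 25 higher and 0 to 19 lower. With log2 folds in place of percentiles the split turned, to 64 higher and 101 lower when centred, and 29 and 36 when also scaled. It turned over all tested regions too. When centred, 4.46% of all tested regions ranked higher and 23.3% lower, against 5.31% and 8.37% of the 1206. When also scaled, the shares were 2.22% and 7.19% of all, against 2.40% and 2.99% of the 1206. Cldnd1 again had the smallest adjusted p, at 99.96, 95.8 and 98.8 at E11.5 and 70.02, 61.3 and 41.9 at E10.5 (2.24 ± 0.496, limma adjusted p = 0.0166). Usp36, a nucleolar deubiquitinase, was at 90.3, 63.0 and 49.9 at E11.5 and 7.92, 7.42 and 6.67 at E10.5. Avpi1 (1.96) and Osbpl2, a lipid transfer protein (2.05), were also among the first 5, each at a limma adjusted p of 0.0302. On the lower side, Ism1, a secreted protein, was at 7.01, 5.18 and 9.00 at E11.5 and 85.9, 72.9 and 48.0 at E10.5 (−2.03 ± 0.487, limma adjusted p = 0.0279). Gm20783 (−1.999, adjusted p = 0.0358), the shared region of Cep95 and the RNA helicase gene Ddx5 (−1.86, 0.0396), Tsc22d2 (−1.74, 0.041) and Ap3m1 of the AP-3 vesicle coat (−1.75, 0.0441) followed.

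Between E12.5 and E10.5, 1 of the 1206 regions ranked higher in limma, where 0.0504% of all tested regions did, and 0 ranked lower, with 156 regions at an unadjusted p under 0.05. It was at Foxp2, a forkhead transcription factor, with its summit 532 bases from the gene boundary (chr6:14900142-14901878). Foxp2 stood at percentiles 83.0, 83.8 and 94.2 at E12.5 and 14.97, 17.5 and 10.2 at E10.5, a difference of 2.25 ± 0.474 (limma adjusted p = 0.0429). Its folds were 5.03, 3.92 and 4.63 at E12.5 and 3.34, 2.95 and 2.66 at E10.5, and its E11.5 percentiles were 14.8, 15.8 and 8.67, so that the region was low in all 6 earlier samples and high in the 3 latest. The call was lost when an E10.5 sample, an E11.5 sample or E12.5 sample 1 was left out, with 0 regions higher, and with E12.5 sample 3 left out 10 ranked higher and 10 lower. In simulated data for this comparison with 2 SD added to 100 regions, 31 were recovered, and with 1 SD added, 1, so smaller shifts would mostly be missed. The simulation gave each region 1 spread over all lists, although the E12.5 lists ranked less alike than those of the other stages.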

How the data were processed

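Open chromatin was profiled by ATAC-seq in 9 samples (3 per stage), and 1 deposited peak list per sample was used. Bowtie2, deepTools 3.3.1 and MACS2 with mm10 are named in the submitters' processing notes, blacklisted regions were removed per the labels, and read filtering, transposase offset and the caller's threshold are not stated there or in the labels. Every deposited list holds, per peak, positions, a fold enrichment (a ratio), and −log10 p and q-values; these are the authors' own and serve to rank or filter the peaks of 1 list. No read counts were given, so depth is unknown.

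Peaks were merged at 1 shared base. A region's fold in a list was the highest of its peaks, and its percentile was taken among the 1206 members. Distances to 21631 coding genes and their starts came from RefSeq tables on GRCm38.p6; starts were listed for 79.9% of the coding genes, and regions were not split into exons, introns and untranslated regions. Wilson intervals (95%) cover counting only. Normal scores of percentiles were tested with limma 3.58.1 (R 4.3.3), stage as a factor over the 9 lists, in 3965 regions, with Benjamini-Hochberg adjustment at 0.05. On simulated scores for E12.5 against E10.5 with no change it called 0. These scores had 1 spread per region for all lists, which the real lists do not share, so the rate of false calls in the real lists is not known from them. Other steps ran in Python 3.11.15 with pandas 2.3.3, NumPy 2.4.6, SciPy 1.17.1 and, for plots, Matplotlib 3.10.9.

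Named regions were the 10 strongest and 5 weakest by mean percentile, the 5 widest, the 15 strongest and 5 farthest away from boundaries, the 5 smallest adjusted p per comparison and direction, up to 6 genes per gene list, and the 5 strongest called in 8 lists; list genes that passed limma are named as well. Genes on 1 chromosome with no promoter sequences here are mostly given by count, and a few items are not reported here. The members and gene lists were chosen with earlier results of these data known. Alternatives varied the overlap, the q threshold, list length, distance, annotation, the scale of the folds, the replicate block and each sample left out.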

Additional observations from a re-analysis of the deposited data

How the results depend on the processing

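The number of regions called in all lists was 204 at a −log10 q of at least 5, 425 with all lists cut to the length of the shortest, and 1195 to 1824 with 1 sample left out; 843 had a base shared by all lists, an alternative chosen after seeing the data. The share near a boundary was 87.5% with equal-length lists, 77.9%, 89.1% and 92.3% at 0.5, 2 and 5 kb, 87.4% over genes of every kind, 87.2% from any base of the region, 79.5% from listed starts alone, and 81.2% to 84.4% with 1 sample left out. The median width was 1131.5 bases at a −log10 q of at least 5, 1105 with equal-length lists, 530 for a single peak, and 1006 to 1064 with 1 sample left out.

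Sample numbers did not pair the samples: same-numbered samples of different stages had correlated deviations of −0.124 to 0.0204 in 9 pairs, and 0 of 18 correlated best with their own number. With a replicate block the numbers of regions higher and lower were 49 and 35 for E12.5 against E11.5 (4.06% and 2.90%, where 3.38% and 2.17% of all tested regions did), 1 and 0 for E11.5 against E10.5, and 0 and 0 for E12.5 against E10.5. For E12.5 against E11.5 they were 144 and 129 with centred log2 folds, and 26 to 90 and 17 to 71 with 1 sample left out. For E11.5 against E10.5 they were 1 and 0 with −log10 q in place of fold, 64 and 101 with centred log2 folds, 29 and 36 with scaled ones, 0 and 0 when a value in 1 list per stage was enough, and 0 to 25 and 0 to 19 with 1 sample left out. For E12.5 against E10.5 they were 2 and 2 with −log10 q in place of fold, 0 higher with centred folds, with scaled folds and with a value in 1 list per stage, and 0 to 10 in each direction with 1 sample left out. The causes were not tested. Over the alternatives of the 21 stage results of named regions, 216 kept their side of the threshold, 97 lost significance with the same direction and 0 reversed. For E12.5 against E11.5, the 5 regions with the smallest adjusted p in each direction passed under every alternative. The splicing and other list regions named for that comparison were not in this count. Of the 14 splicing regions 7 ranked higher, but 3, 4 and 5 did without E11.5 sample 1, 2 or 3. The regions with the smallest adjusted p for E11.5 against E10.5 each passed under only 5 to 10 of their 14 or 15 alternatives. Foxp2, for E12.5 against E10.5, passed under 4 of 15. Missing counts limit all folds: depth and the strength of weak calls cannot be separated here.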
